A study of Homo sapiens with 2 samples.

Results

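The SPI and ETS genes described here encode 10 transcription factors with an ETS domain, a winged helix-turn-helix fold that binds DNA around a GGAA core. The members were SPI1 (which encodes PU.1), SPIB, SPIC, ETS1, ETS2, FLI1, ERG, ELF1, ELF4 and ELK3, taken by Entrez number from a table of 25702 gene features. All 10 were in the table. They make up 10 of the 28 human genes with an ETS domain, and the other 18 are described beside them as a family.

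RNA came from cells that the labels name REH-R, taken here to be a culture of REH, an established line from a human leukaemia of B-cell precursors. What the R stands for is not given in the sources used here. REH is known to carry the ETV6-RUNX1 fusion. Cells of the PAX5 group held a tetracycline-regulated PAX5-IRES-GFP cassette, and cells of the control group held a tetracycline-regulated IRES-GFP cassette without PAX5. Both groups were given doxycycline at 1 µg/mL for 3 days and were sorted for green fluorescent protein. There was 1 library per group, and whether a culture was a clone or a pool is not given in the sources used here. No replicates stand behind any difference below, and no test across libraries was possible.

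ETS factors share their core site, so they are told apart in cells mainly by their amounts, by the bases around the core and by partner proteins such as IRF4, RUNX1 and SRF. PU.1 is needed for the earliest lymphoid and myeloid progenitors, where a high level favours macrophages and a lower one favours B cells, and SPIB acts with it in B-cell receptor signalling. ERG, FLI1, ETS1 and ELF1 are abundant in blood progenitors and lymphocytes, while the ternary complex factors, ELK3 among them, bind serum response elements together with SRF. PAX5 itself holds committed B-cell precursors in the B lineage.

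Total deposited counts were 11944765 with PAX5 and 10997864 without. The PAX5 gene itself had 8319 counts against 2660 in the control library, 2.91-fold (2.78 to 3.04), so the control cells also held PAX5 transcript. Cassette and endogenous PAX5 reads cannot be told apart in counts per gene. B-precursor markers were plentiful in both libraries: DNTT had 19209 and 20376 counts, RAG1 32494 and 32110, and CD79A 5256 and 4950. VPREB1 was the weakest of the 8 markers, with 17 and 7 counts. The 8 T-cell markers together had 1 count in each library. Ratios are the PAX5 library over the control library after TMM scaling, each with an exact 95% interval that covers counting error only. A gene passed the rule of size when the bound nearest to no change lay at or beyond 2-fold and both libraries together had at least 10 counts.

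The 2 members with the largest ratios, SPIB and ELK3, are shown with the 250 bases before their annotated starts, as the regulatory sequence closest to the genes. The sequences are RefSeq windows of GRCh38.p14, a later build than the hg19 used for counting, and run 5′ to 3′ on the strand of the gene. Capitals mark the ETS core, GGAA or its reverse complement TTCC. SPIB has 1 annotated start in the table, with the window at chr19:50418688-50418937 on the plus strand. ELK3 has 2 starts, with windows at chr12:96194125-96194374 and chr12:96255248-96255497, both on the plus strand.
SPIB: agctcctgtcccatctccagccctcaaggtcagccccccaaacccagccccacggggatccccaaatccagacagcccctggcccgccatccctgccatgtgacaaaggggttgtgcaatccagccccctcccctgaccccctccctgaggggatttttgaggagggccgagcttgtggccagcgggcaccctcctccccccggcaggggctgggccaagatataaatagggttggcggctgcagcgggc
ELK3 start 1: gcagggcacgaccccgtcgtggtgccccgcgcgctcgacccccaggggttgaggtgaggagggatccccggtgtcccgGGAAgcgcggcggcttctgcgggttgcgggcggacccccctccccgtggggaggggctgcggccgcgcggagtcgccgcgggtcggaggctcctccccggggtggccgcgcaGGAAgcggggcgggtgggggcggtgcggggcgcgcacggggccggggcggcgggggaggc
ELK3 start 2: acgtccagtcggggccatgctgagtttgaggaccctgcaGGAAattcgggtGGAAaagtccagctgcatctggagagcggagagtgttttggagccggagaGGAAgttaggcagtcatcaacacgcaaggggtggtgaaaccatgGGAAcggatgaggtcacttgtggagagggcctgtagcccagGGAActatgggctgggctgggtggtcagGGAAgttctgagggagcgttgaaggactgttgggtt

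The SPIB window held no GGAA on either strand, whereas 92.7% of 35116 windows of this length held at least 1, with a median of 3. The window of ELK3 start 1 held 2 and that of start 2 held 6, and 1 of those 6 was part of GAGGAAGT, a PU.1 box found in 2.17% of all windows. G and C made up 66.4% of the SPIB window and 82.0% and 57.2% of the ELK3 windows, beside a median of 58.0% over all windows. Windows were found for 7 of the 10 members, 16 in all, and the promoters of SPI1, ETS1 and FLI1 are not shown. The core count in these 16 windows went from 0 in the SPIB window and 1 ELF1 window to 6 in 1 ETS2 window and 1 ELK3 window. None of the 16 held CCGGAAGT, a strong ETS site (3.42% of all windows), the composite of an ETS and an IRF site (2.41%), TCACGC, the core read by paired domains such as that of PAX5 (6.52%), or the palindromic EBF site (1.06%). TGTGGT, a RUNX site found in 11% of windows, matched 1 window of ETS2 and 1 of ELF4. All letters were searched on both strands, GGAA lies inside 3 of the other motifs, and a match or its absence describes these letters only.

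Of the 10 members, 9 had at least 10 counts over both libraries and 1, SPIC, had none. SPIB alone passed the rule of size, on the higher side, and no member passed it on the lower side. Among all 13532 features with at least 10 counts, 1.34% passed on the higher side and 0.0517% on the lower side. Intervals lay above 0 on the log2 scale for 5 members (SPIB, ELK3, ERG, ETS1 and FLI1) and below 0 for 2 (SPI1 and ETS2), beside 18.7% and 16.8% of all features. For abundant genes an interval off 0 is common: among the 5339 features with at least 1000 counts, which include every counted member but SPIB, 28.7% lay above 0 and 25% below. The median log2 ratio of the 9 members was 0.06, beside -0.0066 over all features tested, and their mean was 0.26.

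**Figure D1:**
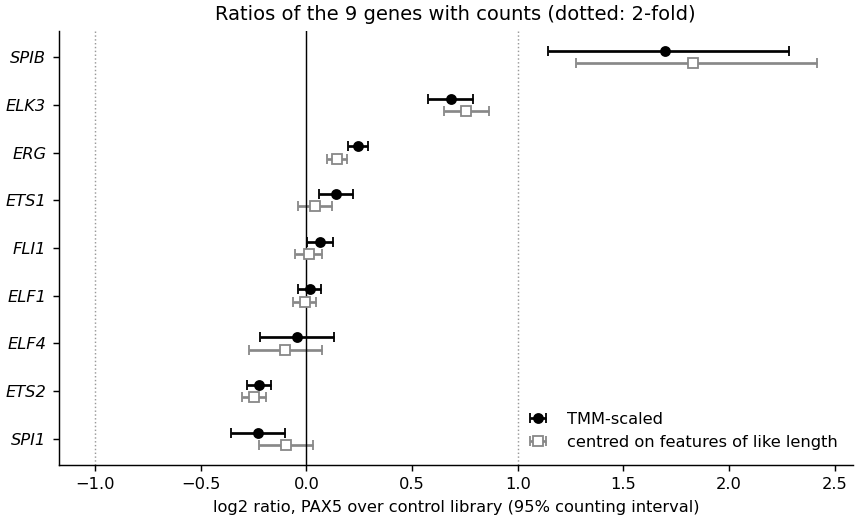
The log2 ratio of the PAX5 over the control library (horizontal axis) is shown for the 9 counted SPI and ETS genes with 95% counting intervals, as scaled by TMM (filled circles) and after centring on features of like length (open squares). SPIB at 1.70 lies wholly beyond the dotted 2-fold line, ELK3 at 0.68 lies short of it, and the other 7 lie between -0.23 and 0.24.

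SPIB, the ETS factor of B-cell receptor signalling and of plasmacytoid dendritic cells (Entrez 6689), had 122 counts in the PAX5 library against 35 in the control. Per length, in RPKM (reads per kilobase of gene, scaled to library size), its level was 6.98 (interval 5.79 to 8.33) against 2.15 (1.5 to 2.99), so the intervals of the 2 libraries did not overlap. The ratio was 3.24-fold (2.21 to 4.86), a log2 ratio of 1.70 (1.14 to 2.28). It was the 248th highest ratio among all features tested, with 98.2% of them below it. In a bulk library, more cells with a transcript and more of it per cell cannot be told apart. With 157 counts in all, SPIB was also the least counted of the 9 members. An assumed biological coefficient of variation of 0.1 between cultures left its lower log2 bound at 1.01, and one of 0.2 moved it to 0.72, short of the 2-fold line.

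SPI1, the gene of PU.1 (Entrez 6688), was counted more often than SPIB in both libraries and differed the other way. It had 988 counts in the PAX5 library against 1076 in the control, levels of 59.0 RPKM (55.4 to 62.8) and 69.2 RPKM (65.1 to 73.4). The log2 ratio was -0.23 (-0.35 to -0.10) and did not pass the rule. SPI1 is a short transcript at 1408 bases, and after centring on features of like length its ratio was -0.10 with an interval from -0.22 to 0.03 that spans 0. Per length, SPI1 stood 32.1-fold (22.9 to 46.4) above SPIB in the control library and 8.46-fold (7.00 to 10.3) above it in the PAX5 library. The summed level of SPI1 and SPIB was 66.0 RPKM with PAX5 and 71.3 RPKM in control cells. Their pooled counts, 1110 and 1111, gave a log2 ratio of -0.11 (-0.23 to 0.01), which was not centred on length. Before such centring, the higher SPIB level did not come with a higher summed level of the SPI group. SPI1 made up most of the sum in both libraries, so the pooled ratio mainly follows that of SPI1. SPIC, a PU.1 relative needed by the red pulp macrophages that recycle iron, was not counted in either library, and the limit that 0 counts set was 0.253 RPKM for the PAX5 library and 0.272 RPKM for the control.

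**Figure D2:**
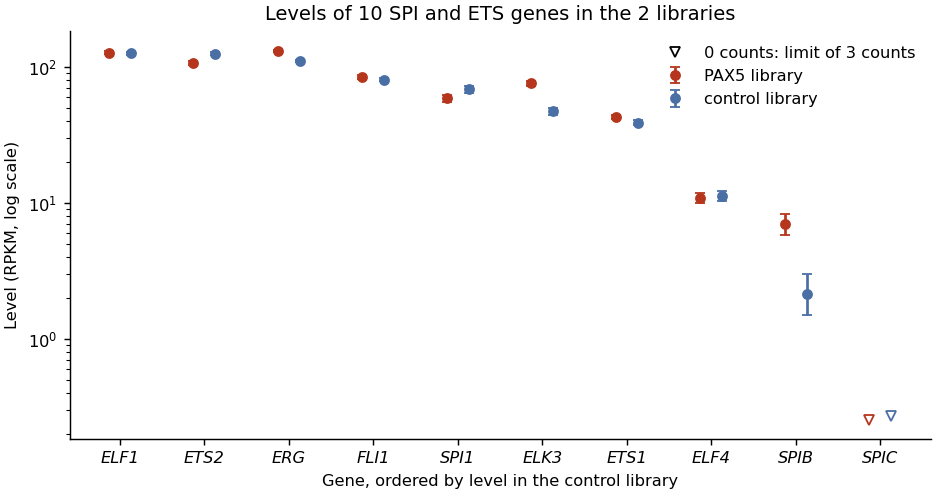
Levels in RPKM (vertical axis, log scale) of the 10 genes are plotted for the PAX5 and the control library, 1 point per library with its 95% Poisson counting interval, and open triangles mark the limit that 0 counts allow. The pairs of points lie close together for most genes, and those of SPIB (6.98 and 2.15 RPKM) and ELK3 (76.4 and 47.6 RPKM) lie farthest apart.

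ELK3, a ternary complex factor also called NET that represses serum response genes until it is phosphorylated by MAP kinases (Entrez 2004), had the next largest ratio. It had 1955 counts in the PAX5 library against 1131 in the control, 76.4 RPKM (73.1 to 79.9) and 47.6 RPKM (44.9 to 50.4). The libraries did not overlap in their intervals, and the ratio was 1.61-fold (1.49 to 1.73), a log2 ratio of 0.68 (0.58 to 0.79). ELK3 did not pass the rule. Its ratio was the 88th highest among the 5339 features with at least 1000 counts, above 98.4% of them. Centring on length moved it to 0.76 (0.65 to 0.86), since features of its length had a median of -0.07. With an assumed biological coefficient of variation of 0.2 its interval reached from -0.12 to 1.49.

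The other ternary complex factors were at lower levels. ELK1 had 717 and 666 counts with a ratio of 0.0007 on the log2 scale (-0.15 to 0.16), and ELK4 had 209 and 158 counts and 0.30 (-0.01 to 0.61). ELK3 stood 3.70-fold (3.39 to 4.03) above ELK1 per length in the PAX5 library and 2.30-fold (2.09 to 2.54) above it in the control library. The summed level of the 3 genes was 101.9 RPKM against 72.1 RPKM.

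ERG, a factor of stem cells and early B-cell precursors (Entrez 2078), was the most counted member, with 8220 counts in the PAX5 library against 6457 in the control. Its level of 131.7 RPKM (128.8 to 134.5) in the PAX5 library was above the 111.3 RPKM (108.6 to 114.0) of the control library. The log2 ratio was 0.24 (0.20 to 0.29). FLI1, its closest relative, which drives megakaryocyte development (Entrez 2313), had 4330 and 3848 counts and a log2 ratio of 0.06, with an interval from 0.0015 to 0.13. The FLI1 interval spanned 0 when libraries were scaled by total counts (-0.01 to 0.11) or by upper-quartile factors (-0.03 to 0.10). ERG stood 1.55-fold (1.49 to 1.61) above FLI1 per length in the PAX5 library and 1.37-fold (1.32 to 1.43) in the control library. FEV, the remaining gene of this branch, had 0 counts in both.

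ETS1 and ETS2, the founding members of the family, had small ratios on opposite sides of 0. ETS1, which restrains plasma cell formation in B cells (Entrez 2113), had 2835 counts in the PAX5 library against 2391 in the control, and a log2 ratio of 0.14 (0.06 to 0.22). After centring on length the ETS1 ratio was 0.04 (-0.04 to 0.12), an interval that spans 0. ETS2, a target of MAP kinase signalling (Entrez 2114), had 4706 and 5112 counts, a log2 ratio of -0.23 (-0.28 to -0.17). Per length, ETS2 stood 2.50-fold (2.39 to 2.63) above ETS1 in the PAX5 library and 3.23-fold (3.07 to 3.39) above it in the control library, and these intervals do not overlap. Neither gene passed the rule.

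ELF1 and ELF4 had intervals that spanned 0. ELF1, an activator of lymphoid genes (Entrez 1997), had 5699 and 5240 counts, levels of 128.2 RPKM and 126.8 RPKM, and a log2 ratio of 0.02 (-0.04 to 0.07). The interval of ELF1 leaves room for a difference of at most 1.05-fold in these libraries by counting error. ELF4, which regulates quiescence and natural killer cells (Entrez 2000), had 553 and 530 counts, 10.9 RPKM and 11.2 RPKM, and a log2 ratio of -0.04 (-0.22 to 0.13). ELF1 stood 11.8-fold (10.8 to 12.9) above ELF4 per length in the PAX5 library and 11.3-fold (10.3 to 12.4) above it in the control library.

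The length of a gene bears on differences of this size. Over 20 groups of features of like length, the median log2 ratio went from -0.25 in the shortest group to 0.23 in the longest. ETS1 and ERG, at 5541 and 5251 bases, fell in a group with a median of 0.10, and SPI1 and SPIB in one with a median of -0.13. After centring on length, intervals stayed above 0 for SPIB (1.83), ELK3 (0.76) and ERG (0.14) and below 0 for ETS2 (-0.25, interval -0.31 to -0.19). Those of SPI1, ETS1 and FLI1 (0.01) then spanned 0.

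**Figure D3:**
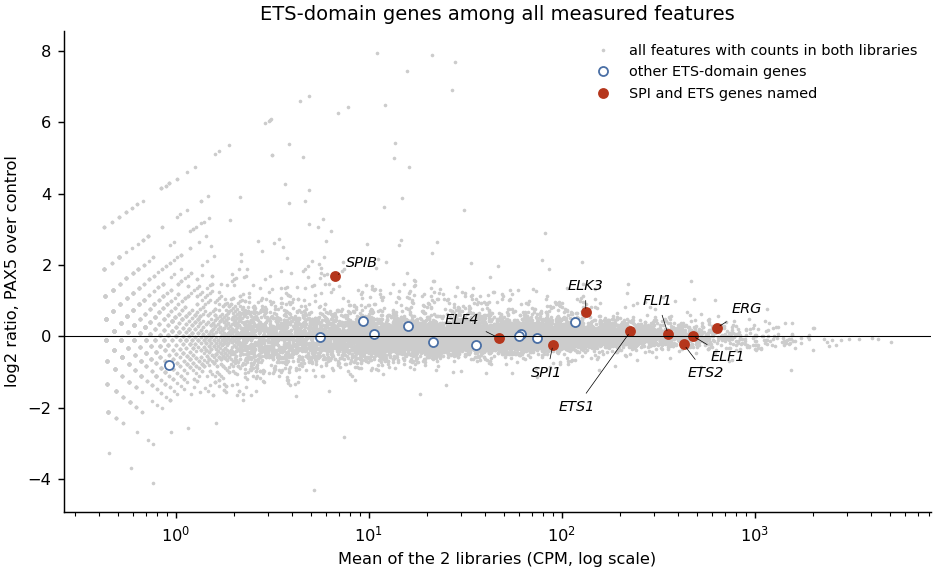
Each point is a feature with at least 10 counts over both libraries and at least 1 in each, placed by its mean CPM (horizontal axis, log scale) and its log2 ratio of the PAX5 over the control library (vertical axis). SPIB at 1.70 lies above most features of its level, and the 8 other counted members sit among the abundant features between -0.23 and 0.68.

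The order of levels among members was read per length. In the control library ELF1 (126.8 RPKM) and ETS2 (126.0 RPKM) came first and did not differ beyond their counting intervals, followed by ERG, FLI1 (81.3 RPKM), SPI1 (69.2 RPKM), ELK3 (47.6 RPKM), ETS1 (39.1 RPKM), ELF4 (11.2 RPKM) and SPIB. In the PAX5 library ERG (131.7 RPKM) and ELF1 (128.2 RPKM) came first with overlapping intervals, followed by ETS2 (107.8 RPKM), FLI1 (85.0 RPKM), ELK3 (76.4 RPKM), SPI1 (59.0 RPKM), ETS1 (43.0 RPKM), ELF4 and SPIB. All other neighbours in both orders had intervals that did not overlap. ERG stood in place 1 in the PAX5 library against 3 in the control, ELK3 in place 5 against 6, and SPI1 in place 6 against 5. SPIB stayed in place 9 in both.

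Of the 18 other ETS-domain genes, 11 had at least 10 counts and 7 had none. The 7 at 0 counts in both libraries were ELF3, ELF5, EHF and SPDEF, known from epithelia, FEV of serotonin neurons, ETV1 and ETV3L. Intervals lay above 0 for 2 of the 11 and below 0 for 1, beside 18.7% and 16.8% of all features tested. None of the 11 passed the rule, and their median log2 ratio was 0.0007. ETV5, a factor downstream of receptor tyrosine kinases, had 1588 counts in the PAX5 library against 1121 in the control and a log2 ratio of 0.40 (0.29 to 0.51), the largest of the abundant ones. Its relative ETV4 had 244 and 252 counts and -0.15 (-0.41 to 0.11). ERF, an ETS repressor under MAP kinase control, had 392 and 427 counts and -0.23 (-0.43 to -0.03).

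ETV6, a repressor whose 5′ part is joined to RUNX1 in the fusion known from REH, had only 127 and 88 counts, 1.78 RPKM and 1.33 RPKM, with a log2 ratio of 0.42 (0.02 to 0.83). Reads of such a fusion and of intact ETV6 or RUNX1 cannot be told apart here. ETV7 had 66 and 62 counts and -0.02. GABPA, which activates mitochondrial and housekeeping genes, had 867 and 832 counts and -0.05 (-0.19 to 0.09), and ELF2 had 752 and 662 and 0.08 (-0.07 to 0.23). ETV3 had 130 and 116 counts and 0.06, and ETV2, an endothelial factor, had 8 and 13.

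Summed over all 28 ETS-domain genes, the level was 768.4 RPKM with PAX5 and 727.7 RPKM in control cells. The 10 members held 84.5% of it in both. ERG held 17.1% in the PAX5 library against 15.3% in the control, ETS2 14.0% and 17.3%, ELK3 9.95% and 6.54%, SPI1 7.68% and 9.51%, and SPIB 0.908% and 0.296%. The mix of ETS transcripts was thus led by the same 4 genes, ERG, ELF1, ETS2 and FLI1, in both libraries, and SPIB was under 1% of it in each.

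**Figure D4:**
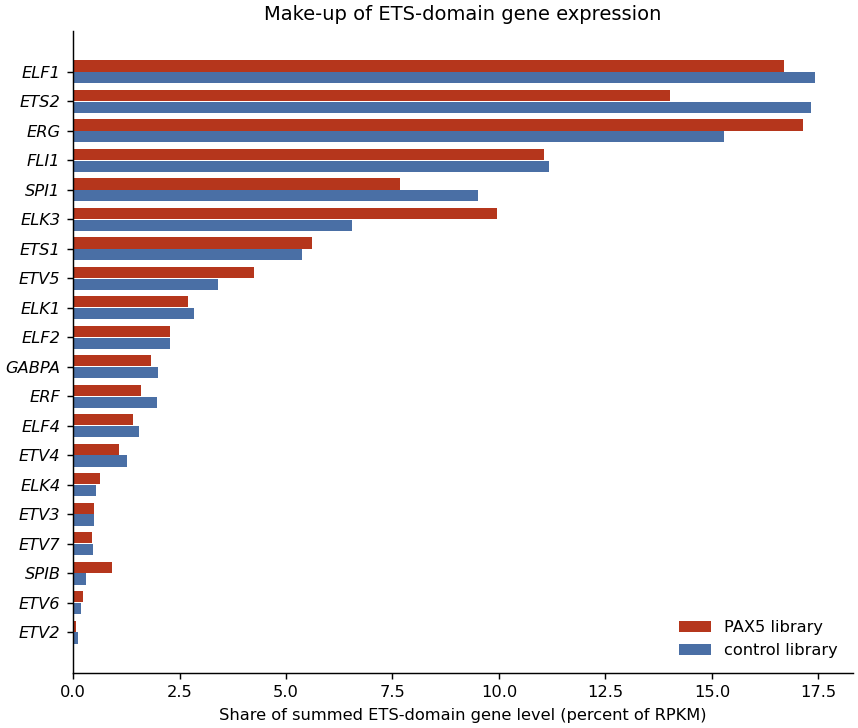
Bars give the share of each ETS-domain gene in the summed level of all 28 (percent of RPKM, horizontal axis) in the PAX5 and the control library, for the 20 genes with counts. ELK3 (9.95% against 6.54%) and ETS2 (14.0% against 17.3%) show the widest gaps in percentage points.

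Genes beside the members were read from the RefSeq order of GRCh38.p14. SPIB lies between POLD1, a DNA polymerase subunit, and MYBPC2, a protein of the sarcomere. POLD1 had 2142 counts in the PAX5 library against 2019 in the control, a log2 ratio of -0.02 (-0.11 to 0.07). MYBPC2 had 639 counts against 5, a log2 ratio of 6.89 (5.66 to 8.52), so the gene on 1 side of SPIB was far higher in the PAX5 library and the gene on the other side was not. Of 12 neighbours of members with at least 10 counts that are not members themselves, MYBPC2 alone passed the rule. On the higher side 1.34% of all features tested passed it. The neighbours of ELK3 had 3471 and 3409 counts (LTA4H, log2 ratio -0.08) and 1308 and 891 counts (CDK17, 0.45, interval 0.32 to 0.57). Of the other neighbours with at least 10 counts, AIFM1 beside ELF4 lay at -0.17, KCNJ15 beside ERG at 0.70 from 35 and 20 counts, and SLC39A13, ARL1, SLC25A15, WBP4 and BCORL1 between -0.14 and 0.14. KIRREL3 beside ETS1 had 0 and 1 counts and KCNJ1 beside FLI1 had 3 in each.

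ETS1 and FLI1 are neighbours of each other, as are ERG and ETS2. ERG and ETS2 had log2 ratios on opposite sides of 0 (0.24 and -0.23), and PSMG1, on the far side of ETS2, had -0.20 (-0.33 to -0.08). The MYBPC2 relatives MYBPC3 and MYBPC1 lie beside SPI1 and SPIC and had 4 against 2 counts and 0 in both. SENCR, a noncoding RNA gene that overlaps FLI1, had 49 and 48 counts, and without a known strand setting its reads cannot be told from those of FLI1. RAB33A, which overlaps ELF4, had 0 counts in both.

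Partners of ETS factors were measured from a list of 16 genes, of which 14 had at least 10 counts and none passed the rule. Intervals lay above 0 for 6 of them and below 0 for 1, beside 18.7% and 16.8% of all features tested. With at least 1000 counts, as many of these partners had, 28.7% of features lay above 0 and 25% below. The median log2 ratio of the 14 partners was 0.04. IRF8 and IRF4, which bind composite sites together with PU.1 or SPIB, had the largest ratios: IRF8 had 393 counts in the PAX5 library against 178, a log2 ratio of 1.04 (0.78 to 1.30), and IRF4 had 119 against 53, 1.06 (0.58 to 1.56). Both had point ratios above 2-fold with bounds short of it. The coactivators EP300 (0.39, interval 0.30 to 0.48) and CREBBP (0.29, 0.21 to 0.38) are encoded by long genes, and centring on length left 0.15 and 0.06. SRF, the partner of ELK3, had 780 and 857 counts and -0.24 (-0.38 to -0.10). RUNX1 had 4719 and 4344 counts and 0.01 (-0.05 to 0.07), MYB had -0.03 and GABPB1, the partner of GABPA, had 0.14 (0.01 to 0.28). TAL1 had 0 counts in both libraries and GATA2 had 1 in each.

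Known B-lineage targets of PU.1 or SPIB went both ways. Of 16 listed, 12 had at least 10 counts, 5 had intervals above 0, 4 below, and 1 passed the rule. Over all features tested, 18.7% had intervals above 0, 16.8% below, and 1.34% passed the rule on the higher side. With at least 1000 counts, as most of these genes had, 28.7% of features lay above 0 and 25% below. The median log2 ratio of the 12 listed genes was -0.0068 and their mean 0.22. CD72, a B-cell coreceptor that is also a known PAX5 target, had 882 counts in the PAX5 library against 209, 3.92-fold (3.37 to 4.58). CIITA, the switch of MHC class II genes, had a log2 ratio of 0.64 (0.50 to 0.78), the phosphatase gene PTPRC 0.47 (0.41 to 0.54), CD79B 0.42 (0.36 to 0.49) and CD22 0.09. On the other side were IGLL1 (-0.26, interval -0.31 to -0.20), BTK (-0.25, -0.35 to -0.15), BLNK (-0.23, -0.32 to -0.15) and IL7R (-0.17, -0.24 to -0.10). After centring on length IGLL1 was at -0.01 and BTK at -0.22. MS4A1, FCER2 and GRAP2 had 0 counts in both libraries and P2RY10 had 0 and 2.

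Of 16 known myeloid targets of PU.1, 10 had fewer than 10 counts over both libraries. Of the 6 others, 5 had intervals below 0 and none above, beside 16.8% and 18.7% of all features tested, and none passed the rule. The median log2 ratio was -0.69. MPO, a granule enzyme, had 554 counts against 1138 and a log2 ratio of -1.14 (-1.29 to -0.997), the lowest ratio of the 5339 features with at least 1000 counts. CYBB, a subunit of the phagocyte oxidase, had 943 against 1506 and -0.78 (-0.90 to -0.66). CSF1R, the macrophage growth factor receptor, had 14 against 41 and -1.66 (-2.65 to -0.75), and ITGAM had 222 against 278 and -0.43 (-0.69 to -0.17). CEBPE had 67 against 94 and -0.59 (-1.07 to -0.13), while CD68 had 81 against 67 and 0.17 (-0.32 to 0.66). The summed level of the 16 genes was 158.9 CPM (counts scaled to library size) against 283.7 CPM. Of the 10 genes under the count minimum, LYZ, CD14, FCGR1A, CSF2RA, CSF3R, ELANE, AZU1, TYROBP and CEBPA had between 0 and 3 counts in each library. CTSG had 1 and 6. The part of these values in the SPI1 ratio was not tested.

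**Figure D5:**
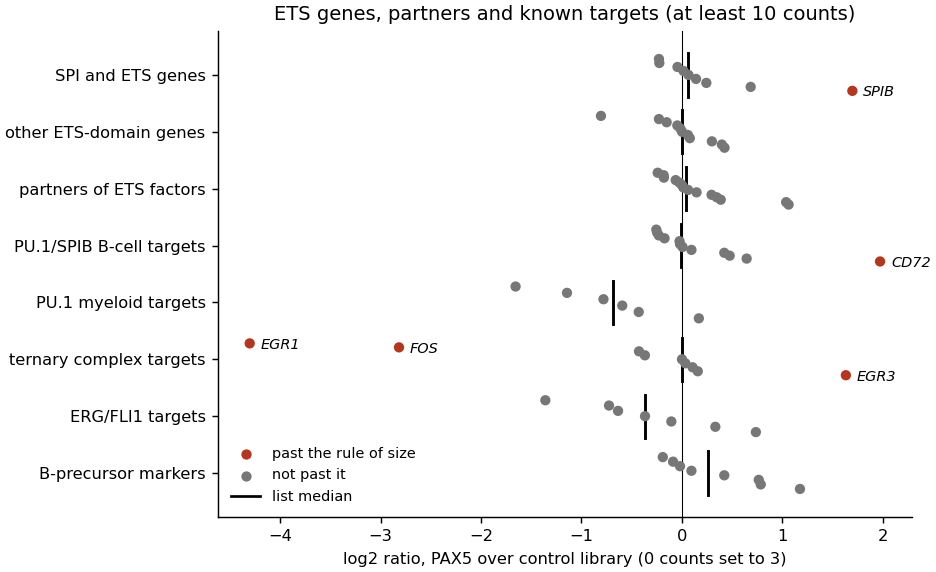
Each point is a gene with at least 10 counts, placed by its log2 ratio of the PAX5 over the control library (horizontal axis, a count of 0 set to 3), in rows by list, with the list median as a vertical bar. Genes past the rule of size are named: SPIB, CD72 and EGR3 on the higher side and EGR1 and FOS on the lower side. EGR3 met the count minimum through the PAX5 library alone. The myeloid targets have the lowest median, -0.69, of the lists with more than 1 counted gene.

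Targets of ternary complex factors and SRF spread widely, with a median log2 ratio of 0.0001 and a mean of -0.67. Of 10 listed genes 9 had at least 10 counts, 1 passed the rule on the higher side and 2 on the lower side. Among all features tested, 1.34% passed on the higher side and 0.0517% on the lower side. EGR1 had 6 counts in the PAX5 library against 110 and FOS 22 against 144, log2 ratios of -4.30 (-5.78 to -3.13) and -2.82 (-3.53 to -2.16). The ratio of EGR1, an immediate early transcription factor, was the lowest of all 13532 features tested. EGR3 had 10 against 0, and the exact lower bound of its ratio was 2.08-fold. It met the minimum of 10 counts through the PAX5 library alone, with no count to spare. VCL, a cytoskeletal SRF target, had -0.37 (-0.48 to -0.25). IER2 (0.11), MCL1 (0.03), JUNB (0.0001) and NR4A1 (0.16), immediate early or short-lived genes of the same list, had intervals that spanned 0, and FOSB had 8 and 10 counts and EGR2 5 and 1.

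Megakaryocyte and endothelial genes bound by ERG or FLI1 were mostly silent or weak. Of 16 listed, 7 had at least 10 counts and 4 had 0 in both libraries (PF4, CDH5, TEK and SELP). None passed the rule, 1 interval lay above 0 and 3 below, and the median was -0.37. All features tested had 18.7% of intervals above 0, 16.8% below and a median of -0.0066. ENG, a TGF-beta coreceptor, had 2463 counts in the PAX5 library against 1818 and a log2 ratio of 0.33 (0.24 to 0.42). TIE1 had 26 against 62 and -1.36 (-2.08 to -0.68), ICAM2 had 162 against 249 and -0.73 (-1.02 to -0.43), and EGFL7 had 1170 against 1403 and -0.37 (-0.48 to -0.25). GP1BA had 43 against 24 counts and ITGA2B 18 against 26, both with intervals that spanned 0. Of 4 genes of red pulp macrophages, the cells that need SPIC, VCAM1 and SLC40A1 had 0 counts in both libraries, HMOX1 had 2 and 3 and CD163 had 6 and 10.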

How the data were processed

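Total RNA of GFP-sorted REH-R cells was sequenced as 1 library per group. The deposited files hold raw counts per gene, beside each gene's Entrez number and length. Per the submitters' processing notes, the authors used featureCounts and the genome hg19 (GRCh37). Aligner, strand setting and handling of multiply matching reads are not given in the sources. All 51404 values were identical between the series table and the single-library files. Count columns were matched to groups by the library number that also names each library's file.

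Symbols came by Entrez number from RefSeq (GRCh38.p14), which matched 23696 of 25702 features. TMM scaling came from edgeR 4.0.16 (factors of 0.9954 and 1.0046). With 1 library per group no model could be tested, so ratios carry exact Clopper-Pearson 95% intervals and levels exact Poisson 95% intervals (scipy 1.17.1). Both cover counting error only, since PCR copies are not independent molecules and cultures vary. The limit for 0 counts is 3 counts. RPKM used the length in the table. The calculation was checked on simulated counts with large planted changes and counting error only, so that check does not cover variation between cultures. The members and lists were chosen with earlier results of these data known. All members and other ETS-domain genes are named, with the protein-coding gene on each side, list members past the rule, and up to 4 more per direction by bound; other genes were named after their values were seen. Alternatives were scaling by total counts, DESeq2 1.42.0 size factors or upper quartiles, centring in 20 length groups set by features with at least 100 counts, other count minimums and bounds, an assumed biological variation, the mean for the median, and single files.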

Additional observations from a re-analysis of the deposited data

How the results depend on the processing

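SPIB was the 1 member past the rule under all scalings, length centring, count minimums, the 1.5-fold bound and the point ratio. With 157 counts and a lower bound of 2.21-fold, SPIB could not fail the other count minimums, the 1.5-fold bound or the point ratio. No member passed at a 4-fold bound or with an assumed biological coefficient of variation of 0.2, which gives 0 in place of 1. The number of members with intervals above 0 went from 5 to 3 after length centring, and to 2 and 1 with an assumed coefficient of 0.1 and 0.2. The number below 0 went from 2 to 1 after length centring and to 0 with either coefficient. Wider intervals follow from adding that variation. The mean of the members was 0.26 in place of the median of 0.06. Of 45 recomputed member ratios, 42 stayed within their counting interval. These include the ratios from the single files, which hold the same counts and could not differ. The other 3 moved beyond it, those of SPI1 (-0.10), ETS1 (0.04) and ERG (0.14) after length centring. SPIB, the only member past the rule, lay too far from 0 for these scalings to change its sign. ELF1, close to 0 at 0.0153, changed sign with upper-quartile factors (-0.0159) and after length centring (-0.0084). Without length, 3 members (SPI1, ETS1 and ELK3) changed place in the order of the PAX5 library. No paired analysis was possible because each group has 1 library. At the depth of these libraries the log2 interval of SPIB is wide, from 1.14 to 2.28, and no result measures variation between cultures.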
